A study of Mus musculus with 10 samples.

Results

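The genes described here are the expressed Zfp zinc finger genes of mouse cells labelled as primary microglia, the macrophages that reside in the brain. The labels enter primary microglia under cell line, and name no other line. They are the protein-coding genes whose symbol is Zfp followed by digits, without Zfp36, and they were chosen by their mean deposited count over all 10 libraries, which had to be at least 200. The table held 28247 genes. Of 342 coding Zfp genes in it, 247 reached the threshold and 95 did not. The mean over both groups chose the genes and their difference between groups did not enter the rule, but all statements below hold for expressed Zfp genes only. All 247 had enough counts to be tested, among 15916 tested genes.

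Zfp symbols are given in the mouse to proteins with C2H2 zinc fingers, short folds that hold a zinc ion between paired cysteines and histidines and that in rows read DNA or RNA. Many of these genes stand in clusters that grew by local duplication. A large share of the proteins also carry a KRAB box, which recruits the corepressor Trim28 and, through it, the histone methyltransferase Setdb1 and heterochromatin proteins. KRAB zinc finger proteins are best known for silencing retrotransposons and imprinted genes. The others include promoter-binding activators, chromatin adaptors, splicing and RNA-binding proteins and a ribosome quality control enzyme.

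All cells carried the genotype label WT and were given oligomers of amyloid-β, the peptide of Alzheimer plaques, before transfection. The transfected RNA was a negative control mimic for 5 libraries, called control below, and miR-378a-3p mimic, a synthetic copy of that microRNA, for 5 others, called mimic. The series asks how miR-378a-3p acts on microglia. Untreated or untransfected cells were not analysed here. Nothing in the labels ties the 5 libraries of a group to separate animals or cultures, and the p-values therefore reflect only how these libraries vary, which may be technical.

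Deposited counts per library summed to between 48707985 and 65069571, with each read pair worth about 4. Mimic replicate 1 stood somewhat apart from its group, being the lowest of the 5 mimic libraries in 78 of the 247 Zfp genes and the highest in 25. The summed level of 12 microglial marker genes was 460 to 489 FPKM (the authors' level, scaled to transcript length and library size) in control libraries and 302 to 324 in mimic libraries. Itgam, Csf1r and Spi1 were high, between 33.3 and 87.0 FPKM in all 10 libraries, but the microglial genes Tmem119, P2ry12 and C1qa were low throughout, with highest values of 0.862, 1.69 and 0.782 FPKM. Cx3cr1 was at 26.4 to 30.4 FPKM in control and 0.377 to 0.657 in mimic libraries. Of the markers of other cells, the 4 of 5 neuronal genes in the table summed to at most 0.401 FPKM, the 5 of 5 fibroblast genes to at most 0.0403 and the 2 of 3 endothelial genes to at most 0.233. The 4 of 6 astrocyte genes summed to at most 0.421 FPKM, in mimic replicate 1, with Gfap and Aldh1l1 under 0.1 everywhere. The 5 of 7 oligodendrocyte genes summed to 10.3 to 11.6 FPKM in control and 8.91 to 9.64 in mimic libraries, nearly all of it Cnp, with Pdgfra and Sox10 under 0.1. The part of these marker differences in the Zfp results was not tested, and in bulk RNA a change in the share of cells of one kind and a change of RNA per cell cannot be told apart.

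Start regions are printed here for the leading genes of each direction for which a promoter was at hand, to show what the sequence around such a start looks like. They are RefSeq promoters of the GRCm38.p6 build, 250 bases before to 50 after the gene start, printed 5′ to 3′ on the strand of the gene. Capitals mark any match, on either strand, to the GC box, ETS, YY1 or ZNF143 letters given further below. Zfp850 (chr7:28014066-28014365, minus strand) and Zfp296 (chr7:19577037-19577336, plus strand) were the 2 largest rises among all members. Zfp467 (chr6:48445041-48445340, minus strand) and Zfp358 (chr8:3492888-3493187, plus strand) were among the 5 largest falls. The Zfp467 window lies inside the gene as positioned by the authors, chr6:48427697-48445464.
Zfp850: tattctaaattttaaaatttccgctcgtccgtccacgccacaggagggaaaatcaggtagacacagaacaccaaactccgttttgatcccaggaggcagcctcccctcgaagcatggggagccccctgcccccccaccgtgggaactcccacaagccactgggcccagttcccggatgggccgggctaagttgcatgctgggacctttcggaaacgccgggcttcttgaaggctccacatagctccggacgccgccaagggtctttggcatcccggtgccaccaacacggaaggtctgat
Zfp296: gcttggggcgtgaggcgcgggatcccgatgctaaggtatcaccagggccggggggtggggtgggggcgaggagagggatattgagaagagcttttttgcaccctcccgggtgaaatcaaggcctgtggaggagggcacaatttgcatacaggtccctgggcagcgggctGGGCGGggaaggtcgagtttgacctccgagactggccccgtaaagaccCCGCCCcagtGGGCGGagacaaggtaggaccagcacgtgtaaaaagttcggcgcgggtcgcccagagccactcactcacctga
Zfp467: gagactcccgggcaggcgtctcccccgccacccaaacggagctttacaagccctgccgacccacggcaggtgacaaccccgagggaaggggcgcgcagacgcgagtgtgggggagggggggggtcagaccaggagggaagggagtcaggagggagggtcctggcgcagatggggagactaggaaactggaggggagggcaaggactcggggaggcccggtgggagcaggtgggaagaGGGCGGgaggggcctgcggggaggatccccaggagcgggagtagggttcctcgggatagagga
Zfp358: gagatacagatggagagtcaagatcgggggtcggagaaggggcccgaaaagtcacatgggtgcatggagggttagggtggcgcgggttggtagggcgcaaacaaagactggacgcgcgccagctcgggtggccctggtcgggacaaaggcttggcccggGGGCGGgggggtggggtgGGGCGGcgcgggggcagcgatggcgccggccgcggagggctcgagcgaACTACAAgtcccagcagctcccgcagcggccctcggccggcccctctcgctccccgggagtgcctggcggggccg

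With the miR-378a-3p mimic, more Zfp genes rose than fell. In edgeR's quasi-likelihood test, 112 of 247 (45.3%) were higher and 45 (18.2%) lower at a Benjamini-Hochberg adjusted p under 0.05 over all tested genes, and 90 did not pass. Over all tested genes the same rule called 63.2% in either direction, 31.7% as higher and 31.5% as lower. Of the calls among Zfp genes 71.3% were rises, against 50.2% over all genes. Coding genes with the same minimum count of 200, a closer background, were called higher in 40.2% and lower in 36.0% of 10162 cases, 76.2% in all. The Zfp genes' share called, 63.6%, lay near that of all tested genes and below that of these coding genes, and against the latter the share of falls differed more than the share of rises. Without mimic replicate 1, 110 members rose and 42 fell.

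The median log2 fold change of the 247 genes was 0.16, against 0.00 over all genes tested, and 155 of the 247 had a positive value. The changes were small: the interquartile range ran from -0.11 to 0.38 on the log2 scale. At a fitted change of at least 1.2-fold, 87 genes rose and 33 fell, against 24.3% and 24.5% of all genes. At 1.5-fold, 25 rose and 15 fell, where the background was 11.7% higher and 14.8% lower. At 2-fold, 3 rose and 5 fell, against 4.81% and 8.46% of all genes. Of the 10162 coding genes with a mean count of at least 200, 2924 rose and 2606 fell at 1.2-fold. At 1.5-fold 1083 of them rose and 1256 fell, and at 2-fold 249 and 545. At 1.5-fold and at 2-fold, the members' shares of rises and of falls lay below both backgrounds. Among the members, rises outnumbered falls among the modest changes and not among those of 2-fold and more.

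The same balance showed without a model. In FPKM, all 5 mimic libraries lay above all 5 control libraries for 100 of the 247 genes, and all lay below for 25. Over all genes tested, 31.4% were apart in the first direction and 20.8% in the second. Of the 10162 coding genes with a mean count of at least 200, 4268 were apart in the first direction and 2475 in the second. Beside these, the members had no larger share of rises and a smaller share of falls. FPKM and library totals place mimic levels higher than edgeR's TMM scaling does, since TMM factors were 0.965 to 0.985 in control and 1.02 to 1.04 in mimic libraries. That shifted the median of all genes by at most 0.09 on the log2 scale.

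Summed over the 247 genes, Zfp transcripts took 0.568%, 0.570%, 0.550%, 0.573% and 0.587% of the counts in the control libraries. In the mimic libraries they took 0.631%, 0.654%, 0.647%, 0.648% and 0.651%. The groups did not overlap, and the lowest mimic value was that of replicate 1. Their summed level was 935 ± 22.4 FPKM in control and 1072 ± 16.7 in mimic libraries (SD, n = 5 each). Per gene, the median member stood between -0.05 and 0.04 in log2 of the TMM-scaled count rate from the control mean in single control libraries and between 0.09 and 0.18 above it in single mimic libraries.

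**Figure D1:**
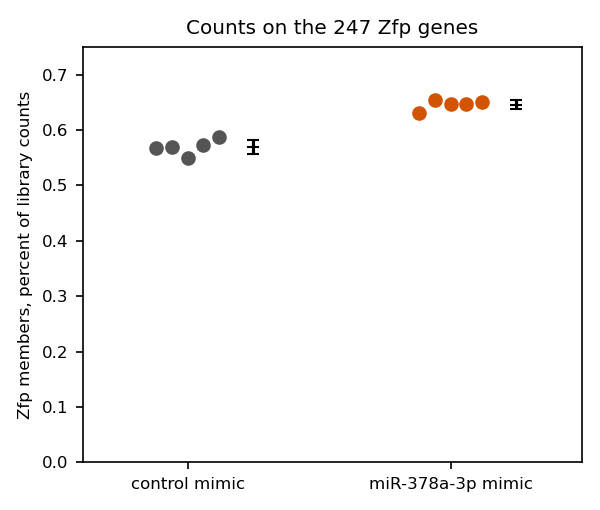
Percent of all deposited counts (y axis, from 0) that fell on the 247 expressed Zfp genes, 1 point per library, with the mean and SD of each group of 5 beside the points. Control libraries lie between 0.550% and 0.587%, mimic libraries between 0.631% and 0.654%, with no overlap.

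A KRAB box could be read from the reference proteins of 132 members, and 114 had none by the rule used, at least 11 of 14 fixed positions of the A-box within 29 residues. Zfp469 had no reference protein. Of the KRAB members, 61 of 132 rose and 16 fell, with a median log2 fold change of 0.18. Of members without the box, 51 of 114 rose and 28 fell, with a median of 0.10. The share of calls that were rises was 79.2% with the box and 64.6% without. Both shares depended on scaling, at 86.7% and 73.1% with library totals and 86.4% and 76.3% with limma on FPKM. The share over all tested genes moved too, from 50.2% to 58.4% with library totals and 59.8% with limma on log2(FPKM + 1). The difference between these classes was not tested.

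KRAB members were also expressed at lower levels, with a median of 1.96 FPKM against 4.25 for members without the box. Fingers were counted, here and below, by a strict C2H2 spacing, so fingers of other spacing were missed and some proteins have more than counted. By that count, KRAB proteins had a median of 11.5 fingers against 7. Grouped by number of fingers, 22 rose and 18 fell among the 54 members with 0 to 5 fingers. The balance was 24 to 9 among the 59 with 6 to 9 fingers, 34 to 10 among the 74 with 10 to 13, and 32 to 7 among the 59 with 14 or more. By share, 40.7%, 40.7%, 45.9% and 54.2% of these bands rose and 33.3%, 15.3%, 13.5% and 11.9% fell. Coding genes with a mean count of at least 200 had 40.2% rises and 36.0% falls, near the shares of the band with 0 to 5 fingers. The median log2 fold change went from 0.00 through 0.07 and 0.16 to 0.21 along these bands. Across the 246 genes with a protein, the correlation of fold change with finger number was weak (Pearson r = 0.12, Spearman rho = 0.16), and it is a description over genes that share libraries and, in part, ancestry.

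**Figure D2:**
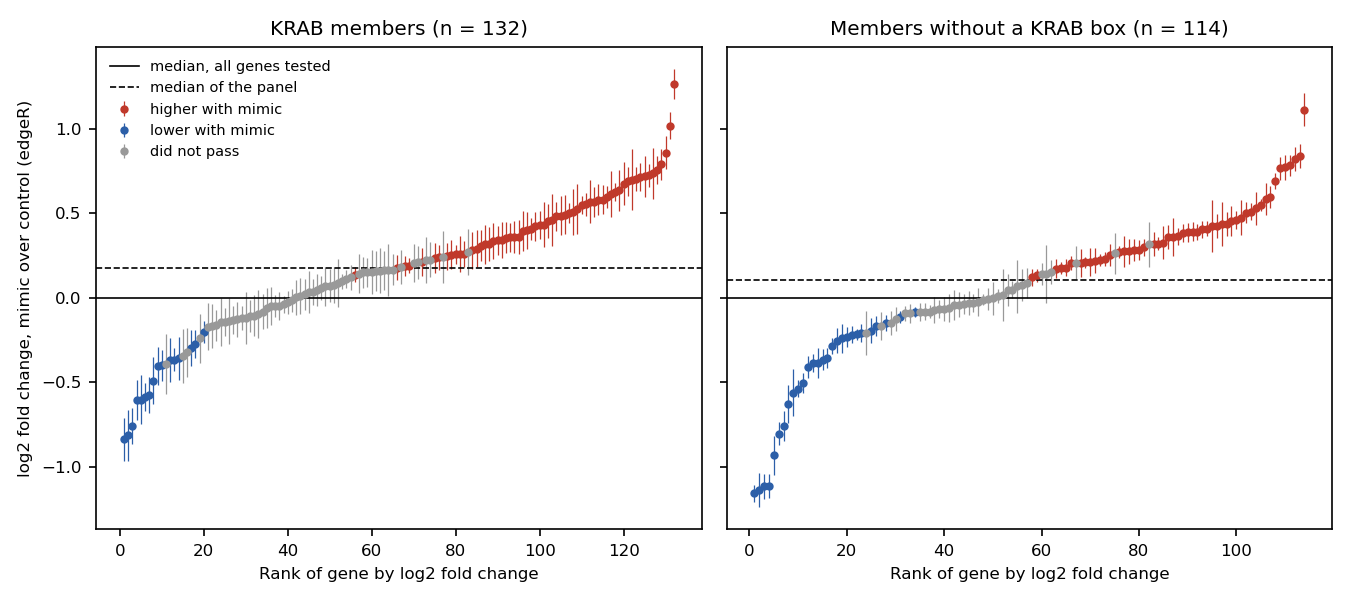
Fitted log2 fold change of mimic over control (y axis) of each member with a reference protein, ranked (x axis), for 132 KRAB members and 114 members without a KRAB box; bars are standard errors, red and blue mark genes that passed the test, grey those that did not. The dashed medians, 0.18 and 0.10, lie above the solid line for all genes tested, and the falls of more than 1 log2 unit are all in the panel without KRAB (Zfp469, with no reference protein, is not drawn).

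Members that share sequence with a near-identical copy are uncertain, since the authors' counting could split or merge their reads. More than 10% of the 75-base words of the transcript occurred in another gene for 34 members, 29 of them KRAB genes, and more than 50% for 8. The 212 members at or under 10% gave 95 rises and 39 falls, the same balance as the whole. A gene on the opposite strand overlapped 25 members and one on the same strand 6. The sources do not say if counting was by strand, and the 217 members without such a neighbour gave 97 rises and 39 falls.

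Rises outnumbered falls at each level of expression. Among members with a mean count of 200 to 500, 25 rose and 14 fell of 78. The balance was 29 to 9 of 68 between 500 and 1000 counts, 33 to 10 of 55 between 1000 and 2000, and 25 to 12 of 46 above that. Rises made up 64.1%, 76.3%, 76.7% and 67.6% of the members' calls in these 4 bands, against 42.9%, 48.1%, 54.9% and 54.2% for all coding genes tested in the same bands. These differences were not tested. The 4 genes just inside the threshold were Zfp934, Zfp763, Zfp963 and Zfp969, with mean counts of 201.9, 203.9, 210.1 and 211.0. Their levels were 0.427, 0.818, 1.05 and 1.898 FPKM in control and 0.658, 0.975, 1.80 and 1.83 in mimic libraries. All 75-base words of Zfp969 also occur in other genes, most often in Zfp966, so its value cannot be separated from theirs. The 4 just outside were Zfp560, Zfp420, Zfp967 and Zfp458, with mean counts of 197.7, 196.3, 188.1 and 187.9. Their levels were 0.492, 0.296, 0.993 and 0.420 FPKM in control and 0.714, 0.761, 0.901 and 0.299 in mimic libraries.

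The largest rise was in Zfp850 (ENSMUSG00000096916, chr7:27984854-28014115), a KRAB gene whose protein has 16 fingers. It was at 0.935, 0.860, 0.759, 1.06 and 0.995 FPKM in the control libraries. In the mimic libraries it was at 2.27, 2.44, 2.17, 2.52 and 2.43 FPKM. The groups were far apart, and the fitted log2 fold change was 1.26 ± 0.0886 (SE, adjusted p = 6.86e-09 by edgeR). Gene positions here and below are those of the deposited table, and for 206 of the 247 members they are identical to GENCODE M21, an annotation of the GRCm38 build.

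Zfp809 (chr9:22225714-22240095), the KRAB protein that recognises the primer binding site of murine leukaemia viruses and silences them in embryonic cells, was the next KRAB gene. Its control levels were 2.75, 2.19, 2.77, 2.44 and 2.60 FPKM. Its mimic levels were 5.14, 5.88, 5.12, 5.56 and 5.83 FPKM, all above the highest control value. The fitted log2 fold change was 1.02 ± 0.0803 (SE, adjusted p = 2.63e-08 by edgeR).

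Zfp296 (chr7:19577287-19580656), which raises the efficiency of reprogramming mouse cells to pluripotency, has no KRAB box. It was at 2.63, 2.88, 2.93, 2.59 and 3.63 FPKM in control libraries. With the mimic it was at 7.12, 7.00, 5.70, 7.17 and 6.75 FPKM, with replicate 3 below the others but above every control library. Its fitted log2 fold change was 1.11 ± 0.0978 (SE, adjusted p = 8.99e-08 by edgeR), and a gene on the opposite strand overlaps it.

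Zfp746 (chr6:48062395-48086593), known as PARIS, is a substrate of the ubiquitin ligase parkin and a repressor of the mitochondrial coactivator gene Ppargc1a. It was at 1.42, 1.47, 1.37, 1.505 and 1.44 FPKM in control and at 3.01, 3.02, 2.65, 2.45 and 2.58 FPKM in mimic libraries. No mimic library came near the control range, and the fitted log2 fold change was 0.84 ± 0.0701 (SE, adjusted p = 5.17e-08 by edgeR). Its protein matched 9 of the 14 KRAB positions and that of its neighbour Zfp212 matched 10, both short of the 11 required. Both were therefore counted as without the box, though the rule would miss a box that departs from these positions. Zfp212 rose from 2.92 ± 0.288 to 5.30 ± 0.178 FPKM.

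The other genes among the 12 largest rises had log2 fold changes from 0.73 to 0.86. The KRAB genes among them were Zfp101, Zfp952, Zfp111 and Zfp758. Those without the box were Zfp800, Zfp672 and Zfp142, the last one a gene with 32 fingers that rose from 2.70 ± 0.235 to 4.88 ± 0.426 FPKM. A gene on the opposite strand overlaps Zfp800. By the rule used, 6 of the 12 largest rises were KRAB genes. Zfp212 would be added under the looser rule of at least 10 positions, and Zfp746 under neither.

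The largest fall was in Zfp469 (ENSMUSG00000043903, chr8:122258620-122272650), whose human counterpart is mutated in brittle cornea syndrome. It was at 1.38, 1.66, 1.63, 1.39 and 1.65 FPKM in control libraries. It was at 0.470, 0.440, 0.484, 0.571 and 0.496 FPKM with the mimic. No mimic library reached the lowest control value, and the fitted log2 fold change was -1.74 ± 0.0850 (SE, adjusted p = 1.14e-10 by edgeR).

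Zfp395 (chr14:65358389-65386436), whose human counterpart is induced by hypoxia, is a member at higher level. Its control levels were 8.54, 9.87, 9.40, 9.19 and 9.46 FPKM. Its mimic levels were 4.64, 4.22, 4.65, 4.29 and 4.39 FPKM, in a narrow range well under the control libraries. The fitted log2 fold change was -1.16 ± 0.0523 (SE, adjusted p = 4.73e-11 by edgeR). Its protein holds no finger of the strict C2H2 spacing searched for, as in 9 members in all.

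Zfp467 (chr6:48427697-48445464), which promotes fat cell formation from mouse marrow stroma, was at 3.39, 3.64, 3.91, 3.64 and 3.38 FPKM in control libraries. In mimic libraries it was at 1.73, 1.92, 1.84, 1.69 and 1.63 FPKM. The fitted log2 fold change was -1.12 ± 0.0745 (SE, adjusted p = 3.94e-09 by edgeR), and the groups did not overlap. Zfp358 went from 9.20, 10.1, 9.54, 8.59 and 8.35 FPKM to 4.49, 4.07, 4.88, 4.57 and 4.54 FPKM, also without overlap.

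Zfp524 fell from 7.52 ± 0.687 to 3.64 ± 0.493 FPKM, but 44.8% of its 75-base words occur in other gene models. A gene on the opposite strand also overlaps it. Zfp580 fell from 5.39 ± 0.759 to 3.00 ± 0.297 FPKM and overlaps a gene on the same strand. Zfp414, one of the 8 most abundant members, fell from 17.9 ± 1.52 to 10.95 ± 0.849 FPKM and shares 23.0% of its words with other models. Zfp503, a corepressor of the family to which Zfp703 also belongs, fell from 4.13 ± 0.326 to 2.60 ± 0.351 FPKM.

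The KRAB genes among the 12 largest falls were Zfp383, Zfp931 and Zfp90, with log2 fold changes of -0.84, -0.81 and -0.76. Zfp931 shares 15.0% of its words with other models. Zfp462, a large protein that binds the histone methyltransferases Ehmt1 and Ehmt2 at heterochromatin in mouse embryonic stem cells, closed the list, falling from 0.683 ± 0.0617 to 0.470 ± 0.0710 FPKM.

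**Figure D3:**
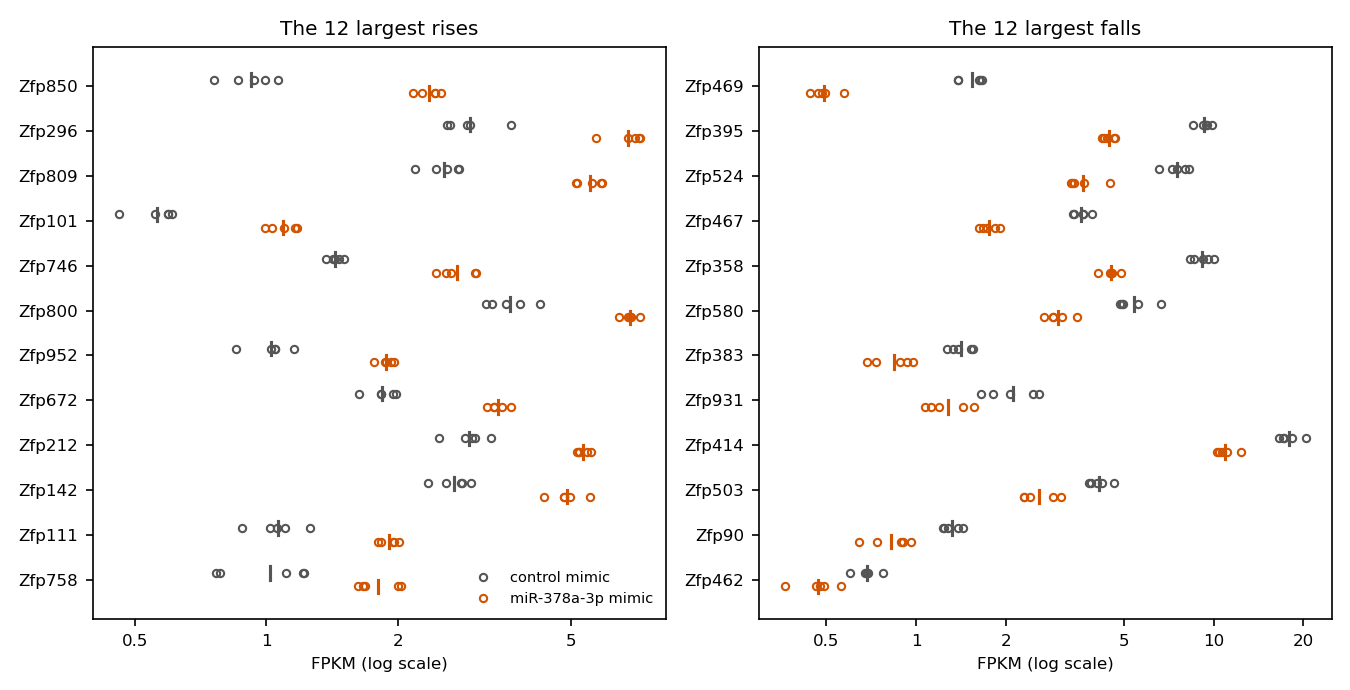
FPKM (x axis, log scale) of the 12 largest rises and the 12 largest falls among Zfp members that passed the test without overlap between groups, 1 circle per library (grey control, orange mimic) and a bar at each group mean. Zfp850 goes from a mean of 0.923 to 2.36 FPKM and Zfp469 from 1.54 to 0.492.

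The most abundant member, Zfp106, an RNA-binding protein whose loss causes motor neuron degeneration in mice, was level between the groups in FPKM. It was at 58.8, 58.6, 55.6, 58.2 and 57.7 FPKM in control libraries and at 54.7, 57.3, 59.6, 58.7 and 59.6 FPKM in mimic libraries. The ranges overlap and the means, 57.8 and 58.0, go the other way from the edgeR value of -0.08 (SE 0.0296, edgeR adjusted p = 0.0209). The call was lost with library totals (log2 fold change -0.01) and without mimic replicate 1 (-0.06), and the sign turned with limma on FPKM (0.00).

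The other abundant members split. Zfp207, which binds spindle microtubules and the checkpoint protein Bub3, was at 28.2, 26.3, 25.5, 27.03 and 27.5 FPKM in control and 32.5, 35.7, 34.3, 36.5 and 33.7 FPKM in mimic libraries. That is a rise of 0.27 on the log2 scale (SE 0.0354, edgeR adjusted p = 7.31e-06). Zfp740 rose from 13.9 ± 0.822 to 21.7 ± 0.416 FPKM, with a gene on the opposite strand overlapping it. Zfp346, which binds double-stranded RNA, rose from 15.3 ± 0.582 to 18.4 ± 0.737 FPKM. Zfp706, a single-finger protein of 76 residues, fell from 19.999 ± 0.874 to 17.5 ± 1.17 FPKM, but its mimic replicate 3, at 19.5 FPKM, lay inside the control range. Zfp335, whose human counterpart is mutated in microcephaly, did not pass the test (edgeR log2 fold change -0.01, adjusted p = 0.757).

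Of 37 Zfp genes listed for a known role, 32 were members. Of these, 17 (53.1%) rose, 7 (21.9%) fell and 8 did not pass, with a median log2 fold change of 0.21, beside 40.2% rises and 36.0% falls among coding genes with the same minimum count. Zfp521 and Zfp30 had mean FPKM values of 0.000702 and 0.00333, Zfp57 was listed at 0 in all libraries, Zfp618 was at 0.0473 FPKM, and Zfp423 was not analysed here.

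Among the KRAB proteins with known targets, Zfp568, which represses a placental Igf2 transcript in the mouse, was at 3.03, 2.55, 2.58, 2.82 and 2.84 FPKM in control libraries. It was at 4.37, 5.43, 4.53, 5.03 and 4.94 FPKM with the mimic. The groups did not overlap, and the fitted log2 fold change was 0.72 ± 0.0686 (SE, adjusted p = 2.03e-07 by edgeR). Zfp932, which binds endogenous retroviruses in mouse embryonic stem cells, rose from 0.961 ± 0.169 to 1.64 ± 0.137 FPKM. However, 32.6% of its words occur in other genes, most often in the related gene Gm15446. Zfp445, which with Zfp57 maintains genomic imprints, was at 11.6 ± 0.270 FPKM in control and 13.3 ± 0.947 FPKM in mimic libraries and missed the threshold (edgeR log2 fold change 0.10, adjusted p = 0.0621). It passed with library totals (0.17), with limma on FPKM (0.17) and without mimic replicate 1 (0.11) or 3 (0.13).

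Among proteins that act in translation, Zfp598 (chr17:24669687-24682016), the ubiquitin ligase that marks collided ribosomes, was at 10.8, 11.9, 10.6, 10.1 and 12.1 FPKM in control libraries. With the mimic it was at 20.004, 19.4, 18.2, 19.1 and 19.0 FPKM. Every mimic library lay far above the control range, and the fitted log2 fold change was 0.69 ± 0.0473 (SE, adjusted p = 5.10e-09 by edgeR). Zfp593 and Zfp622, whose yeast counterparts act in export and maturation of the large ribosomal subunit, went opposite ways. Zfp593 rose from 5.59 ± 0.479 to 6.93 ± 0.359 FPKM, a call lost when control replicate 1, 2 or 5 was left out (log2 fold changes 0.18, 0.19 and 0.16). Zfp622 fell from 9.79 ± 0.135 to 8.97 ± 0.281 FPKM.

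Among proteins of RNA processing, Zfp830, a splicing-associated protein, rose from 10.2 ± 1.37 to 14.9 ± 1.17 FPKM. Zfp318, which allows IgD transcripts to be made in mouse B cells, rose from 4.07 ± 0.155 to 5.01 ± 0.119 FPKM. Zfp326, of a complex that in human cells couples splicing to elongation, was lower by edgeR (log2 fold change -0.25, SE 0.0732, adjusted p = 0.00686) with overlapping FPKM ranges. That call was lost with library totals (-0.18) and with limma on FPKM (-0.13).

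Among adaptors of chromatin and transcription, Zfp217, a partner of CtBP and CoREST corepressors, was at 7.16, 7.74, 8.52, 7.04 and 8.19 FPKM in control and 11.8, 11.8, 11.6, 11.7 and 11.7 FPKM in mimic libraries. The mimic libraries lay within a very narrow range above all controls, and the fitted log2 fold change was 0.51 ± 0.0506 (SE, adjusted p = 3.61e-07 by edgeR). Zfp410, an activator of the gene for the NuRD subunit Chd4, rose from 3.11 ± 0.176 to 4.34 ± 0.216 FPKM. Zfp644, a partner of Ehmt1 and Ehmt2 in human cells, rose from 1.68 ± 0.0702 to 2.30 ± 0.107 FPKM. Zfp592 rose from 5.37 ± 0.271 to 7.13 ± 0.177 FPKM, while Zfp687, which shares a protein complex with it in human cells, was at 7.56 ± 0.464 and 7.55 ± 0.437 FPKM and did not pass the test (edgeR log2 fold change -0.09, adjusted p = 0.149). Without control replicate 5, Zfp687 passed as lower (-0.14).

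Zfp609, a partner of Nipbl and Integrator in neural cells, rose from 9.55 ± 0.616 to 11.9 ± 0.393 FPKM. Zfp91, a ubiquitin ligase of noncanonical NF-κB signalling in human cells, rose from 11.8 ± 0.530 to 14.7 ± 0.432 FPKM, and Zfp24, required for myelination in the mouse, from 3.86 ± 0.429 to 4.99 ± 0.141 FPKM. Zfp277, which helps Polycomb proteins hold the Ink4a locus silent in mouse cells, fell from 2.84 ± 0.275 to 2.36 ± 0.0979 FPKM. Zfp516, an activator of brown fat genes in the mouse, was lower by edgeR (log2 fold change -0.15, adjusted p = 0.00970), a call lost with library totals (-0.07) and with limma on FPKM (-0.05).

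The related GC-rich site binders Zfp148 and Zfp281 did not pass, with edgeR log2 fold changes of -0.08 and 0.01 (adjusted p = 0.181 and 0.845). Neither did Zfp143, an activator that binds many promoters (-0.15, edgeR adjusted p = 0.0882), nor Zfp827, which brings NuRD to telomeres in human cells (-0.04, edgeR adjusted p = 0.647). Zfp703, a relative of Zfp503, was at 2.28 ± 0.463 FPKM in control and 3.02 ± 0.493 FPKM in mimic libraries and missed the threshold (edgeR log2 fold change 0.31, adjusted p = 0.0517). It passed with DESeq2 (0.31), limma on FPKM (0.30), library totals (0.39), counts divided by 4 (0.31) and the replicate block (0.32), and without control replicate 5 (0.41), mimic replicate 3 (0.35) or mimic replicate 4 (0.37). Zfp143 passed without control replicate 1 (-0.19) or mimic replicate 5 (-0.21), and Zfp281 with limma on FPKM (0.09).

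Many of the Zfp genes expressed in these cells lie in clusters. Chromosome 7 held 62 members, chromosome 17 held 31, and chromosomes 8 and 13 held 19 each. With neighbours joined where they lay within 500 kb of each other, 19 runs of at least 3 members held 118 members. Of these 56 (47.5%) rose and 18 (15.3%) fell, against 56 (43.4%) and 27 (20.9%) of the 129 outside such runs. Coding genes with a mean count of at least 200 had 40.2% rises and 36.0% falls. These differences were not tested.

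Several runs held both rises and falls. On chromosome 6, the 8 members between 47835661 and 48623227 all passed the test, but 6 rose and 2 fell. Zfp746 (log2 fold change 0.84) and Zfp467 (-1.12), next to each other among the members of this run, were the most apart. On chromosome 7, between 4915217 and 5053723, 2 of 5 rose and 3 fell, with Zfp524 and Zfp580 among the falls. On chromosome 13, 11 neighbouring KRAB genes between 67121660 and 67792512 gave 2 rises and 4 falls, with log2 fold changes from -0.60 in Zfp759 to 0.72 in Zfp595. This was the largest run with more falls than rises.

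Other runs leaned to rises. The largest, 17 members on chromosome 17 between 21008903 and 23564238, of which 16 were KRAB genes, gave 9 rises, 2 falls and a median log2 fold change of 0.21. A second run on that chromosome, from Zfp871 to Zfp414, gave 5 rises and 1 fall among 9 members and held Zfp101 and Zfp952 at one extreme and Zfp414 at the other. On chromosome 8, 4 of the 5 KRAB genes from Zfp930 to Zfp866 rose and 0 fell. All 3 members from Zfp397 to Zfp24 rose, and so did Zfp991, Zfp992 and Zfp993 on chromosome 4, but these share 80.0%, 34.5% and 78.7% of their 75-base words with other genes and cannot be counted as independent. In the run of Zfp113, Zfp157 and Zfp68 on chromosome 5, no gene passed.

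**Figure D4:**
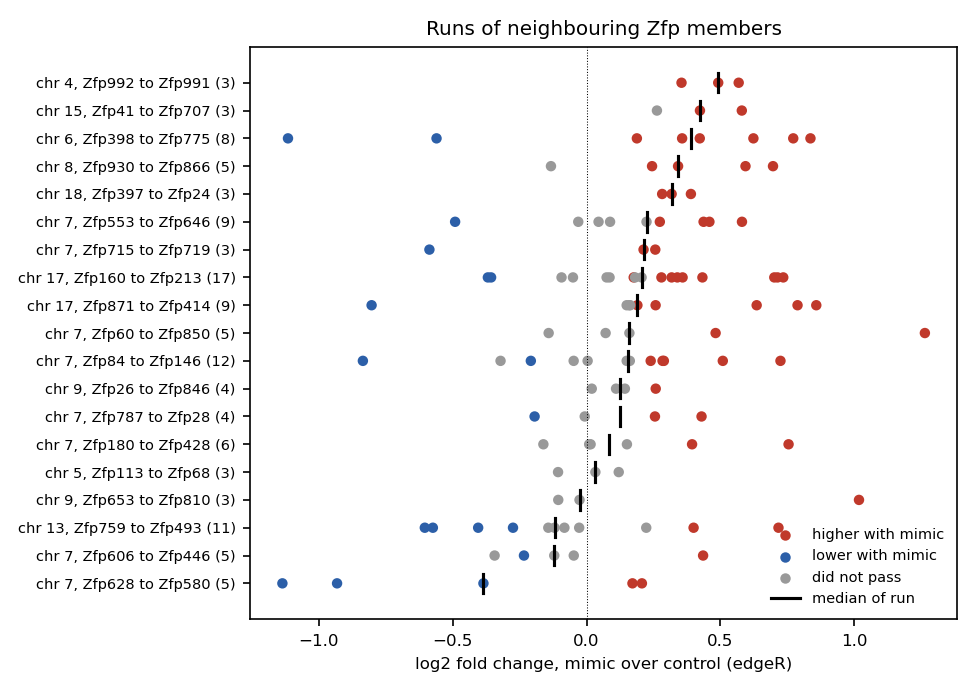
Log2 fold change of mimic over control (x axis) of each member in the 19 runs of at least 3 neighbouring Zfp genes, 1 row per run with its chromosome, first and last gene and number of members; black bars are run medians. Most runs hold red (higher) and blue or grey (lower, not passed) points side by side, as in the chromosome 6 run, which spans -1.12 to 0.84.

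Promoters were found in RefSeq for 205 of the 247 members and for 27025 genes in all. A gene was counted for a motif if any of its 300-base promoter windows held the letters on either strand. The letters GGGCGG (GC box of SP and KLF factors) occurred in 51.7% of the members and in 38.2% of all genes. The latter were not filtered by expression, as the members were. The ETS letters CCGGAAG occurred in 23.9% against 9.93%, the YY1 core ATGGCGG in 12.7% against 4.69%, and the ZNF143 core ACTACAA in 7.32% against 3.78%. The cyclic AMP element letters TGACGT occurred in 15.1% against 8.37%, the NRF1 letters GCATGCG in 9.27% against 4.01%, and the E-box CACGTG in 8.29% against 8.09%. Members were richer in CG pairs, with a median of 16 against 8 in the window of each gene that held most. Most of these motifs hold a CG pair, and the part of CG content in their shares was not tested. Matches of different motifs may overlap.

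Within the members these letters did not split cleanly by direction. The GC box was in 57.8% of the 90 higher members with a promoter, in 55.9% of the 34 lower ones and in 43.2% of the 81 that did not pass. The ETS letters were in 22.2%, 29.4% and 23.5%. The YY1 core was in 12.2%, 2.94% and 17.3%, where the middle value is 1 of 34 members. Of the windows printed above, those of Zfp296, Zfp467 and Zfp358 hold a GC box, that of Zfp296 also the E-box, that of Zfp358 also the ZNF143 core, and that of Zfp850 none of the motifs searched.

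Transcripts of the proteins through which KRAB boxes act rose in part. Of 24 genes of the KRAB cofactor and heterochromatin list, 14 rose, 2 fell and 8 did not pass, with a median log2 fold change of 0.29. Of 13 genes of NuRD, the chromatin remodelling and deacetylase complex, 5 rose, 4 fell and 4 did not pass, with a median of 0.06. The genes tested as a whole had 31.7% rises and 31.5% falls, and coding genes with a mean count of at least 200 had 40.2% and 36.0%. The first list, at 58.3% and 8.33%, leaned to rises beside both. NuRD, at 38.5% and 30.8%, lay near the coding genes. These lists were chosen with earlier results of these data known.

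Trim28, the corepressor that KRAB boxes bind, was at 57.4, 58.5, 56.3, 55.2 and 60.3 FPKM in control libraries. It was at 72.9, 73.4, 78.4, 74.1 and 74.8 FPKM with the mimic. The groups did not overlap, and the fitted log2 fold change was 0.29 ± 0.0304 (SE, adjusted p = 7.21e-07 by edgeR). Setdb1, the methyltransferase that Trim28 brings to its targets, was at 19.6 ± 0.662 and 20.5 ± 1.23 FPKM and did not pass (edgeR log2 fold change -0.02, adjusted p = 0.649), with a sign that turned under other scalings.

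Cbx5, the heterochromatin protein HP1α, was at 14.3, 13.5, 11.7, 13.03 and 14.5 FPKM in control libraries and at 23.2, 26.0, 25.6, 26.1 and 27.4 FPKM in mimic libraries. It was the largest rise of the lists, 0.85 on the log2 scale (SE 0.0527, edgeR adjusted p = 1.72e-09). Uhrf1, which guides maintenance of DNA methylation after replication, rose from 20.1 ± 1.62 to 36.2 ± 1.49 FPKM. Chaf1a, of the chromatin assembly factor that works at replication forks, rose from 6.48 ± 0.501 to 10.9 ± 0.203 FPKM, and Smarcad1, a remodeller that binds Trim28, from 2.93 ± 0.253 to 4.98 ± 0.122 FPKM. Uhrf1 and Chaf1a are known to be higher in dividing cells, and the part of cell division in these values was not tested.

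In NuRD, the helicase gene Chd3 was at 23.8, 24.9, 24.8, 24.1 and 24.5 FPKM in control and 9.86, 10.5, 11.3, 10.4 and 10.8 FPKM in mimic libraries. That fall of 1.295 on the log2 scale (SE 0.0376, edgeR adjusted p = 4.63e-13) was larger than any change among the 37 genes of both lists. The histone-binding subunit Rbbp4 rose from 19.8 ± 0.967 to 28.01 ± 0.260 FPKM.

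**Figure D5:**
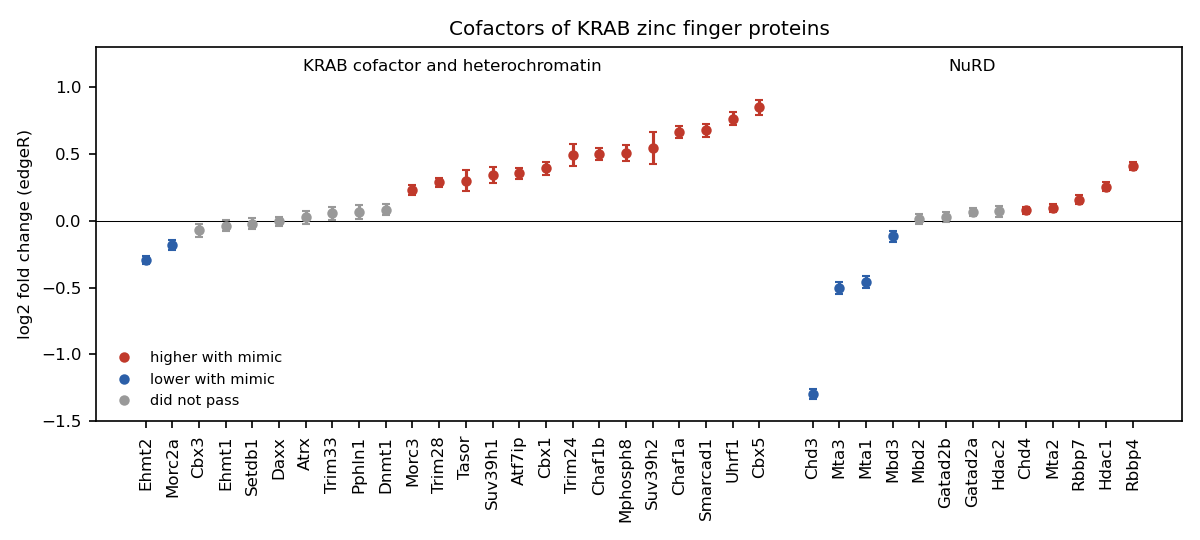
Log2 fold change of mimic over control (y axis, with standard errors) of the 24 genes of the KRAB cofactor and heterochromatin list and the 13 of NuRD, each list in order of its values; red and blue mark genes that passed the test. Cbx5 at 0.85 and Chd3 at -1.295 are the extremes.

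For comparison with zinc finger genes under other names, 108 other genes that the authors' table annotates as C2H2 zinc finger factors had a mean count of at least 200. Of these 40 (37.0%) rose and 32 (29.6%) fell, with a median log2 fold change of 0.05, nearer to the background than the Zfp genes. The 61 Zfp genes tested that stayed under the count threshold gave 13 rises and 11 falls. Neither difference from the members was tested.

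The spread between libraries was small beside the larger changes. The median coefficient of variation of a member's FPKM was 9.14% in control and 7.96% in mimic libraries, and the median standard error of a log2 fold change was 0.0844. FPKM ranges overlapped between the groups for 33 members that passed the test.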

How the data were processed

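RNA of 10 libraries was measured by poly(A) sequencing with dUTP strand marking and paired reads, per the labels' protocols. Per the file headers, the table deposited by the authors gives each gene an expected count and an FPKM in every library, and the expected counts were already whole numbers. A count of 4 was held by 933.5 genes in the average library, but a count of 3 by 485.6 and of 5 by 305.8, from which a read pair was reckoned as about 4 counts. FPKM is the authors' length-scaled level, deposited as such. The submitters' processing notes name cutadapt 1.9, HISAT2 2.2.1, StringTie 2.1.6, DESeq2, edgeR and the build GRCm39. Neither the annotation nor the use of strand is given in the sources used here. Positions in the table equal GENCODE M21 (GRCm38) for 25569 of 28163 shared gene identifiers.

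The members and lists were chosen with earlier results of these data known. After filterByExpr and TMM scaling, counts were fitted in edgeR 4.0.16 (glmQLFit, glmQLFTest, R 4.3.3) without covariates, with Benjamini-Hochberg adjustment over 15916 genes and a threshold of 0.05. Fold changes are mimic over control, and the standard error is the log2 fold change divided by the square root of F. Genes named are the 12 largest rises and falls that passed without overlap of the groups, the 8 most abundant members, members with a known role, those nearest the threshold, the 6 cofactors with the smallest p, Trim28 and Setdb1; members named for their place in a run were picked after their values were seen. Fingers, KRAB boxes and shared 75-base words were read from GENCODE M21 sequences. Sites of miR-378a-3p were not analysed here.

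Alternatives were DESeq2 1.42.0, other scalings, limma 3.58.1 on log2(FPKM + 1) and log2(FPKM + 0.1), no low-count filter, counts divided by 4, a fold minimum of 1.2, a replicate block, each library left out, other count thresholds and a looser KRAB rule. On simulated counts of mimic against control with 15681 genes tested, edgeR found 50.7% of 67 genes set to a 1.2-fold change, 92.5% of 67 at 1.5-fold and 100.0% of 66 at 2-fold, and called 12 genes that had not been changed. On counts divided by 4, chi-square per degree of freedom was at least 2.80 for every pair of libraries within a group. That is more than counting noise alone gives, but separate preparations of the same culture could also give it. Each library was counted as 1 sample.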

Additional observations from a re-analysis of the deposited data

Results flagged for a closer look

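For the 66 named genes and the summed FPKM and count share of the members, the 5 libraries of each group were examined for a single value far from the others. A library stood apart in 4 of 136 groups, fewer than the 1 in 20 that chance gives. Zfp296 was at 5.70 FPKM in mimic replicate 3, under the 6.75 to 7.17 FPKM of the other mimic libraries. Zfp706 was at 19.5 FPKM in the same library, above the 16.6 to 17.5 FPKM of the others. Zfp346 was at 14.3 FPKM in control replicate 4, under 15.4 to 15.8 FPKM. The cofactor gene Chaf1a was at 11.3 FPKM in mimic replicate 2, above 10.8 to 10.9 FPKM.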

How the results depend on the processing

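The counts of members that rose or fell stayed within 1.5 times of 112 and 45 under every alternative run except the stricter threshold of 1000 mean counts, which left 58 rises and 22 falls among fewer genes. Leaving out each library gave 101 to 110 rises and 42 to 48 falls. Library totals gave 129 and 33, limma on FPKM 128 and 30, and at least 1.2-fold 87 and 33. Over all genes tested, library totals gave 5937 rises and 4225 falls and limma on log2(FPKM + 1) 6047 and 4065, against 5050 and 5006 in the main fit. Of the 157 called members, 142 to 157 were also called under each alternative fit, 0 of them in the other direction. The median log2 fold change of 0.16 was 0.24 with library totals and 0.23 with limma on log2(FPKM + 0.1), and 0.11 to 0.17 with each library left out, lowest without control replicate 3. The counts for KRAB members and cofactors stayed within 1.5 times.

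Whether same-numbered libraries of the groups are paired could not be settled from the labels or from their values. Correlations of their deviations were weak, -0.0087 to 0.0621, and 4 of 10 libraries correlated best with their own number. With the replicate block 110 members rose and 44 fell, with a median log2 fold change of 0.16.

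Of 66 named genes, 53 kept direction and side of the threshold under all 18 alternatives. Some change was seen in the others: 4 lost a call, 5 gained one and 6 changed sign, Zfp106 and Zfp281 in more than one way. Setdb1 turned to a log2 fold change of 0.0536 with library totals and to 0.0624 and 0.0651 with limma on FPKM (pseudocounts 1 and 0.1), and ranged from -0.0512 to 0.00977 with each library left out, positive without mimic replicate 1. With limma at these pseudocounts Zfp148 was at 0.00558 and 0.00645 and Zfp106 at 0.00466 and 0.00472. Zfp335 was at 0.0649 with library totals, 0.0724 and 0.0770 with limma and -0.0309 to 0.00229 with each library left out, positive without mimic replicate 3. Zfp827 was at 0.0350 with library totals and at 0.0222 and 0.0464 with limma. Zfp281 ranged from -0.0170 to 0.0190 with each library left out, negative without control replicates 1, 2 and 3. The cause was not tested. All these values lie within 0.1 of 0. Fewer of the scarcer members were called: 50.0% of those with 200 to 500 counts, and 80.4% of those above 2000. For all coding genes tested in the same bands the shares were 65.5% and 79.9%. The part of depth in this was not tested.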
